A study of Homo sapiens with 6 samples.

Results

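The IFIT and IFITM genes are 2 small families of interferon-induced antiviral genes, and their 7 widely studied human members were followed here across a gallbladder cancer line and a drug-resistant line made from it. The members were taken by name, IFIT1, IFIT2, IFIT3, IFIT5, IFITM1, IFITM2 and IFITM3, and all 7 were found among the 63140 genes of the deposited count table. NOZ is an established human gallbladder cancer cell line. NOZ-R was derived from it by raising the dose of gemcitabine, a nucleoside analogue used in chemotherapy, step by step. The labels give neither the doses nor whether the drug was present when RNA was taken, and do not say whether NOZ-R is 1 clone. Poly-A RNA was sequenced from 3 libraries of NOZ and 3 of NOZ-R, with total counts per library between 14136037 and 19244923. The labels do not say whether the libraries came from separate cultures, so the p-values rest on library-to-library spread alone, and that may be technical.

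Cells that sense interferon pass the signal from the receptor through the JAK1 and TYK2 kinases to the factor ISGF3, which contains STAT2 and IRF9. ISGF3 binds a short DNA element, the interferon-stimulated response element, in front of its target genes, and IFIT and IFITM genes are among the best-known targets. IFIT proteins are built from tetratricopeptide repeats, lie in the cytosol and bind RNA. IFIT1 holds RNA whose cap lacks the methyl group that marks most cellular messages, IFIT3 and IFIT2 join it in complexes, and IFIT5 binds RNA with a bare triphosphate end. IFITM proteins sit in membranes and hinder the fusion of enveloped viruses with the cell, IFITM1 mostly at the cell surface, IFITM2 and IFITM3 mostly in endosomes.

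The stretches just before the starts of 5 members are shown because all 7 members differed in the same direction between the lines, and because each stretch holds at least 2 copies of the core of the response element. The sequences are from RefSeq, build GRCh38.p14, and run 5′ to 3′ along the gene's strand from 160 bases before the annotated start to 6 bases after it. Capitals mark that core, GAAA, any 2 bases and GAAA again, or its reverse complement, TTTC, any 2 bases and TTTC.
IFIT1: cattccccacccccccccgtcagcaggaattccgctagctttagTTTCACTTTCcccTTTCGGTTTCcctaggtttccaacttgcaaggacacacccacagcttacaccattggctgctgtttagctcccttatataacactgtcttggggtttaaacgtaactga
IFIT3: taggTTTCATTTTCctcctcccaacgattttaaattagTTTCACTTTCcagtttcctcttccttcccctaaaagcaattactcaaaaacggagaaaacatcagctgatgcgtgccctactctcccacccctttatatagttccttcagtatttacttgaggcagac
IFIT5: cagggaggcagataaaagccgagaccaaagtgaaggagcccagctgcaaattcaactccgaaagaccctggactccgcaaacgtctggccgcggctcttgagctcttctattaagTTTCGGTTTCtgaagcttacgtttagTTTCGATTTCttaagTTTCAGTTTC
IFITM1: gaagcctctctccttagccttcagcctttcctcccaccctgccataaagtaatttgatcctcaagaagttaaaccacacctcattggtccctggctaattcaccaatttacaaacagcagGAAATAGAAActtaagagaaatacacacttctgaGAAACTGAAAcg
IFITM3: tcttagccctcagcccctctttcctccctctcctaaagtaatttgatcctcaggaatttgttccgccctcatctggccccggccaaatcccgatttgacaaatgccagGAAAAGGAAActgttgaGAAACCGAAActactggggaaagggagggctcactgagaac

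These stretches lie at chr10:89392463-89392628 for IFIT1, chr10:89327837-89328002 for IFIT3 and chr10:89414408-89414573 for IFIT5, all on the plus strand. Those of the other family lie at chr11:313880-314045 on the plus strand for IFITM1 and chr11:320855-321020 on the minus strand for IFITM3. The reference held windows of 250 bases before to 50 bases after a start for 5 of the 7 members, in 6 windows, since IFIT3 has a pair of annotated starts. All 6 windows had at least 2 matches to this core on either strand, and IFIT5 had 3, at -45, -19 and -4 from the start. In IFIT1 the matches began at -116 and -103, in IFIT3 at -156 and -122, in IFITM1 at -40 and -6, and in IFITM3 at -52 and -35. The second start of IFIT3 had matches at -94 and -51. Of all 35116 windows of 300 bases in the reference, 3.57% held at least 1 match and 0.259% held 2 or more. The letters TTCNNNGAA, the core of the gamma-activated site, were found once, in IFITM1 at -12, where they overlap the response element match at -6. Of all windows 7.66% held TTCNNNGAA. A match is a run of letters, and no binding was measured.

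All 7 members were higher in NOZ-R than in NOZ, with edgeR's quasi-likelihood test and Benjamini-Hochberg adjustment over the 14386 genes tested. Of all tested genes 30.4% were called higher at an adjusted p below 0.05, so a call by itself is common in this comparison. A call with an estimated change of at least 2-fold was reached by 6 of the 7 members, against 8.96% of tested genes, and the same 6 passed a test against a 2-fold change, against 5.89%. IFITM2 was the exception in both. The median log2 fold change of the members was 2.21 and that of all tested genes was -0.01. In each of the 7 genes every NOZ-R library lay above every NOZ library, as did 32.9% of tested genes. A bulk library cannot tell more cells that express a gene from more RNA per cell.

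**Figure D1:**
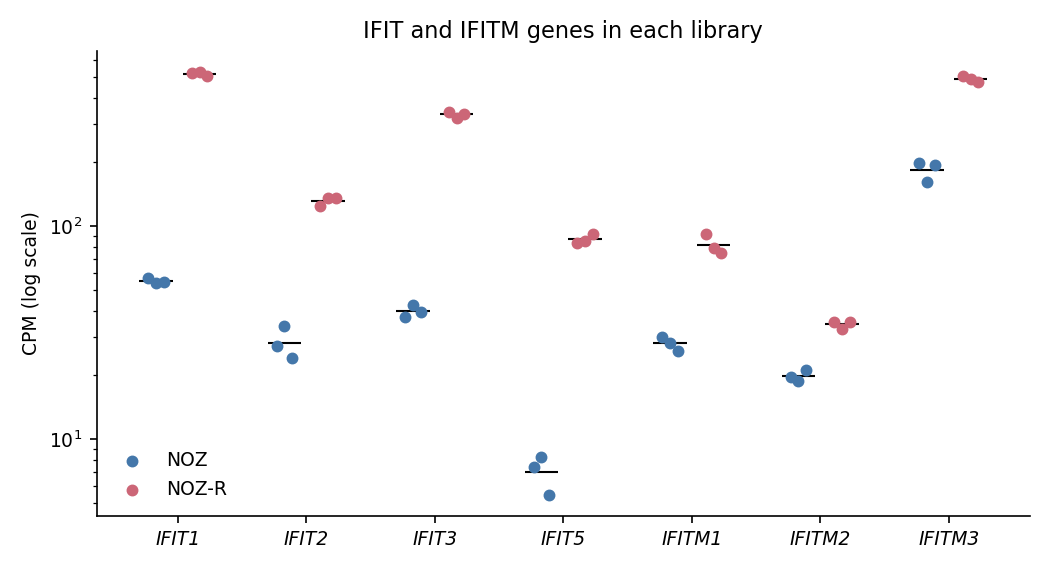
Library-scaled counts (CPM, log axis) of the 7 members in each library, with NOZ in blue, NOZ-R in red and a black bar at each mean of 3 libraries. All NOZ-R points lie above all NOZ points for each gene, from the narrow gap of IFITM2 (19.8 to 34.7 CPM on average) to the wide gap of IFIT5 (7.02 to 86.7 CPM).

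Among the genes of the RNA-binding IFIT proteins, IFIT1 had the most counts in every library. IFIT1 (ENSG00000185745.9, chromosome 10, 89392546 to 89406486, plus strand) measured 57.2, 54.2 and 54.4 CPM in NOZ replicates 1 to 3, and 521.4, 529.4 and 504.7 CPM in NOZ-R replicates 1 to 3. CPM stands for counts scaled to the library total after TMM normalization. The lines did not come near each other, and the spread within each was small, with an SD of 1.68 CPM for the parental and 12.6 CPM for the resistant libraries (n = 3 each). The log2 fold change was 3.23 ± 0.0566 (SE), a 9.37-fold difference (adjusted p = 5.51e-14 in edgeR). Over the tested genes this was the 312th largest increase.

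IFIT3 (ENSG00000119917.13, chromosome 10, 89327894 to 89340971, plus strand), the partner that stabilises IFIT1, was close to it in the size of its change. It measured 37.3, 42.7 and 39.3 CPM in the NOZ libraries and 343.8, 321.8 and 336.7 CPM in the NOZ-R libraries. Again no library of one line overlapped the other. The log2 fold change was 3.07 ± 0.0663 (SE), or 8.40-fold (adjusted p = 3.27e-13 in edgeR).

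IFIT2 (ENSG00000119922.9, chromosome 10, 89283694 to 89309276, plus strand), which joins IFIT1 and IFIT3 in complexes, had the smallest change of the family. It measured 27.3, 33.8 and 24.0 CPM in NOZ and 124.6, 135.5 and 134.8 CPM in NOZ-R. NOZ replicate 2 was the highest of its line and NOZ-R replicate 1 the lowest of its own, and a wide gap remained between them. On the log2 scale the change was 2.21 ± 0.0998 (SE), or 4.63-fold (adjusted p = 5.02e-10 in edgeR).

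IFIT5 (ENSG00000152778.8, chromosome 10, 89414586 to 89421001, plus strand), the member that acts on its own rather than in the complex, started lowest and had the largest log2 fold change of the 7. Its counts were 148, 148 and 81 for NOZ, or 7.39, 8.20 and 5.49 CPM, and 1505, 1369 and 1373 for NOZ-R, or 83.2, 84.8 and 92.1 CPM. NOZ replicate 3 was the lowest of the 6. The log2 fold change was 3.61 ± 0.111 (SE), or 12.2-fold (adjusted p = 1.06e-11 in edgeR).

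The membrane proteins changed less. IFITM3 (ENSG00000142089.15, chromosome 11, 319669 to 327537, minus strand), which guards endosomes, was the most abundant member in NOZ and rose from a high level. It measured 197.1, 160.1 and 192.9 CPM in NOZ and 507.8, 490.2 and 475.1 CPM in NOZ-R. NOZ replicate 2 was the lowest, and the lines did not overlap. On the log2 scale the change was 1.42 ± 0.0727 (SE), or 2.68-fold (adjusted p = 1.77e-09 in edgeR).

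IFITM1 (ENSG00000185885.15, chromosome 11, 313506 to 315272, plus strand), the cell-surface member, changed by a similar factor. It measured 30.1, 28.3 and 25.9 CPM in NOZ and 92.0, 78.9 and 74.4 CPM in NOZ-R, where replicate 1 stood highest. Its change was a log2 value of 1.54 ± 0.0905 (SE), or 2.91-fold (adjusted p = 7.17e-09 in edgeR).

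IFITM2 (ENSG00000185201.16, chromosome 11, 307631 to 315272, plus strand), an endosomal member close to IFITM3 in sequence, changed least. It measured 19.5, 18.7 and 21.2 CPM in NOZ and 35.5, 33.0 and 35.5 CPM in NOZ-R. The lines were apart in all 6 libraries, by a narrower margin than for the other members. Its change was a log2 value of 0.81 ± 0.0831 (SE), or 1.76-fold (adjusted p = 1.72e-06 in edgeR). Tested against a 2-fold change it did not pass.

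**Figure D2:**
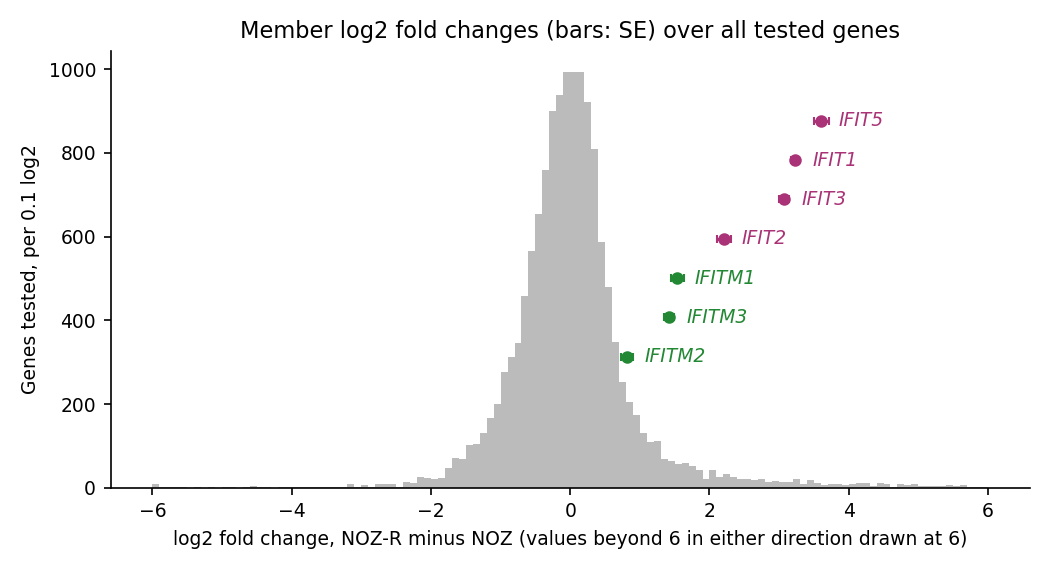
Log2 fold changes of the 7 members (points, with SE bars; IFIT in purple, IFITM in green, placed at arbitrary heights) over a histogram of all 14386 tested genes, with values beyond 6 drawn at 6. The IFIT genes lie between 2.21 and 3.61 and the IFITM genes between 0.81 and 1.54, all to the right of the bulk of genes around -0.01.

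Every IFIT gene had a larger log2 fold change than every IFITM gene. The ratio of FPKM values (the authors' unit, fragments scaled by gene length and library total) of 2 members in the same library is free of library scaling, and 6 such ratios were compared between the lines with a two-sided exact permutation test. With 3 libraries against 3 the smallest p it can give is 0.1, so no ratio could pass 0.05, and the values are given with their spread. The log2 ratio of IFIT3 to IFITM3 was -3.23, -2.74 and -3.13 in NOZ and -1.40, -1.44 and -1.33 in NOZ-R. The lines did not overlap, and the difference was 1.64 on the log2 scale (exact permutation p = 0.1, adjusted 0.15 over the 6 ratios).

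Within each family the ratios separated some members and not others. Ratios of other gene pairs were not examined, so how common such a separation is was not measured. IFIT2 fell behind IFIT3, with a log2 ratio of -0.23, -0.11 and -0.48 in NOZ and -1.24, -1.02 and -1.09 in NOZ-R, a difference of -0.84 without overlap. IFITM2 likewise fell behind IFITM3, from -2.51, -2.28 and -2.36 to -3.01, -3.07 and -2.92, a difference of -0.62 without overlap. For IFIT1 over IFIT5 the difference was -0.41, also without overlap. It was -0.26 without NOZ replicate 3, and it turned to 0.10 when 1 was added to each FPKM value. These 3 ratios each had an exact permutation p of 0.1, the smallest possible, and 0.15 after adjustment. The ratio of IFIT1 to IFIT3 overlapped between the lines, with means of 0.61 ± 0.135 and 0.77 ± 0.0730 (SD, n = 3 each, exact permutation p = 0.3). So did that of IFITM1 to IFITM3, with -1.93 ± 0.199 and -1.82 ± 0.112 (SD, n = 3 each, exact permutation p = 0.4). A p of this size does not show that the pairs moved alike.

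The make-up of each family, as shares of its summed FPKM, followed from this. The 4 IFIT genes summed to 29.2 ± 1.86 FPKM in the parental and 218.2 ± 1.12 FPKM in the resistant line (SD, 3 libraries a line, as for all shares here). IFIT1 made up 42.9% ± 3.10 of that sum in NOZ and 49.2% ± 1.09 in NOZ-R, and IFIT3 28.1% ± 1.45 and 28.8% ± 0.997. The share of IFIT2 was 23.3% ± 2.61 in NOZ and 13.3% ± 0.621 in NOZ-R, and that of IFIT5 was 5.71% ± 0.831 and 8.68% ± 0.489. The 3 IFITM genes summed to 97.7 ± 7.83 FPKM in the parental and 232.3 ± 11.9 FPKM in the resistant line. IFITM3 held 68.7% ± 2.13 and 71.0% ± 1.07 of it, IFITM1 18.1% ± 1.96 and 20.1% ± 1.29, and IFITM2 13.2% ± 0.863 and 8.88% ± 0.495.

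**Figure D3:**
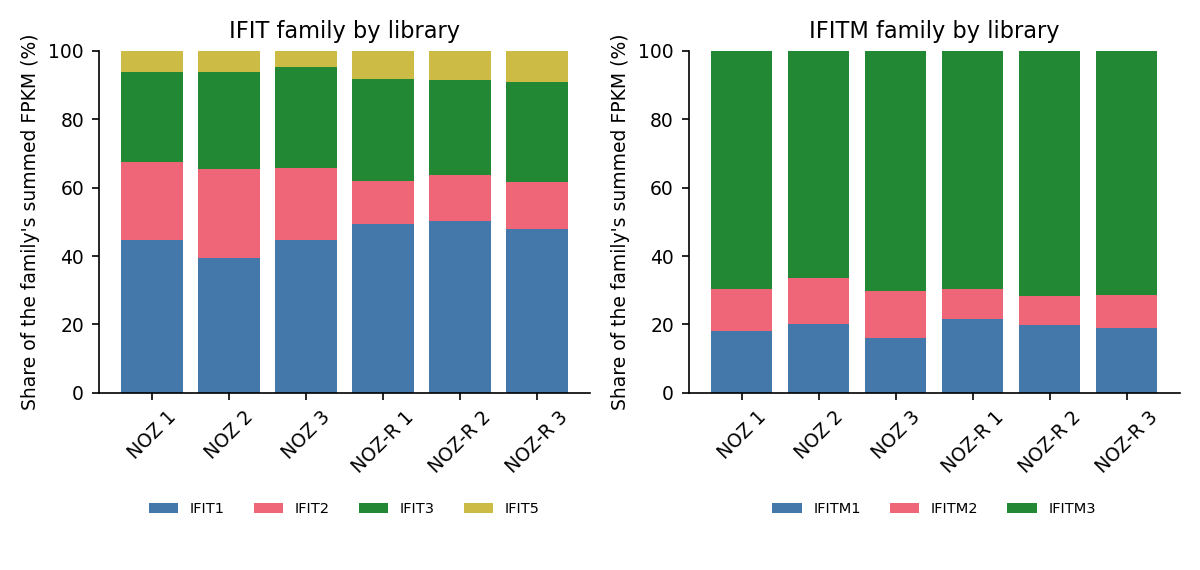
Share of each member (percent of its family's summed FPKM) in each of the 6 libraries, IFIT family on the left and IFITM family on the right. With the authors' gene lengths, IFIT1 and IFITM3 take the largest shares in every library. The IFIT2 band narrows from 23.3% in NOZ to 13.3% in NOZ-R on average.

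Ordered by FPKM, IFITM3 stood first in both lines, at 67.3 ± 7.29 FPKM in the parental and 164.8 ± 6.15 FPKM in the resistant line (SD, 3 libraries a line). In NOZ it was followed by IFITM1 at 17.6, IFITM2 at 12.9, IFIT1 at 12.5, IFIT3 at 8.20, IFIT2 at 6.85 and IFIT5 at 1.68 FPKM. The neighbours IFITM2 and IFIT1 overlapped between libraries, as did IFIT3 and IFIT2. In NOZ-R the order was IFITM3, then IFIT1 at 107.3, IFIT3 at 63.0, IFITM1 at 46.9, IFIT2 at 27.6 to 29.8, IFITM2 at 20.6 and IFIT5 at 18.9 FPKM, and only the last pair overlapped. The order and the family shares rest on the length the authors used for each gene. As computed from their values, it was 5067 bases for IFIT3 and 2844 for IFITM3. The exons of GENCODE release 29 cover 2640 and 1348 bases. For IFIT1 the lengths were 4614 and 4613 bases. With the same counts divided by the GENCODE lengths, IFIT3 would stand above IFIT1 in both lines. Those counts may include reads outside the GENCODE exons, so the order after a recount is not known. Changes of a gene, or of a ratio of 2 genes, between the lines do not depend on these lengths.

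Gene models that overlap can blur counts in an unstranded library. IFIT1, IFIT2 and IFIT3 lie inside the span of LIPA, the lysosomal acid lipase gene on the opposite strand, but only 65 of the 4101 exonic bases of IFIT2, and no exonic bases of IFIT1 or IFIT3, overlap a LIPA exon. IFIT2 also shares 356 exonic bases (8.68%) with AL353751.1 on its own strand. LIPA averaged 74.0 CPM in the parental and 82.1 CPM in the resistant libraries and did not pass the test (log2 fold change 0.15, edgeR adjusted p = 0.0571). The IFITM genes are harder to separate. IFITM1 and IFITM2 share 351 exonic bases on the same strand, which is 32.5% of the exonic bases of IFITM1 and 22.7% of those of IFITM2. IFITM3 shares 287 exonic bases (21.3%) with AC136475.5 on the opposite strand. Of the distinct runs of 100 bases in the transcripts, 27.5% of IFITM1, 18.2% of IFITM2 and 17.1% of IFITM3 also occur in the transcripts of other genes, against 0% for IFIT1, IFIT3 and IFIT5 and 6.27% for IFIT2. With runs of 50 bases the shares were 1.02% for IFIT1, 3.64% for IFIT3, 0% for IFIT5 and 7.91% for IFIT2. Each IFITM gene had a higher share. The read length is not stated here, so neither run length is preferred. The exons checked cover 2640 bases of IFIT3, against 5067 in the authors' length. For IFITM3 the values were 1348 and 2844 bases, for IFITM1 1080 and 1666, and for IFITM2 1543 and 1606. For IFIT5 they were 4015 and 4369 bases, and for IFIT2 4101 and 4326. The remainder was not checked in any of these genes. By these checks the values of IFIT2 and the IFITM genes are less certain than those of IFIT1 and IFIT5. So are the ratios between IFITM members. For every member except IFIT1 the comparison holds only over the exons checked.

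The remaining genes of the families were close to silent. IFIT1B had 0 counts in all parental libraries and 1, 4 and 2 in the resistant ones. IFITM10 had 2, 2 and 5 counts in the parental libraries and 9, 1 and 1 in the resistant ones. IFITM5, known for its role in bone, and the pseudogene IFITM8P had 0 counts in every library. For a gene at 0, 3 counts over a line set the limit that could have been missed, 0.0568 CPM for the parental and 0.0610 CPM for the resistant line, for counting error only. None of the 7 further family entries had enough counts to be tested. The 9 entries for IFITM3 pseudogenes, looked at after their values were seen, summed to between 1 and 13 counts in any library.

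The IFIT genes rose in a part of the genome whose other genes were mostly lower. Of the 549 other tested genes on chromosome 10, 392 were lower and 48 higher in NOZ-R, with a median log2 fold change of -0.60. Among all tested genes 29.8% were called lower and 30.4% higher. Of these 549 genes, 13 had a log2 fold change at or above that of IFIT2. Within 1 Mb of the IFIT locus 10 other genes were tested, 6 of them lower and 1 higher, with a median of -0.39 and none as high as IFIT2. Taking the chromosome median off the members gave 3.83 for IFIT1, 2.81 for IFIT2, 3.67 for IFIT3 and 4.21 for IFIT5. The proapoptotic receptor gene FAS (log2 fold change 0.12, edgeR adjusted p = 0.373) and the mitotic kinesin KIF20B (-1.48, edgeR adjusted p = 5.02e-06) are among these neighbours and were picked after their values were seen.

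The IFITM locus, near the end of chromosome 11, had a different surrounding. The 788 other tested genes of chromosome 11 had a median of -0.09, with 216 higher and 261 lower. Among all tested genes the shares were 30.4% higher and 29.8% lower. Of the 38 others within 1 Mb, 21 were higher and 4 lower (median 0.29), and 6 had a log2 fold change at or above that of IFITM2. The largest of these was IRF7, the factor that amplifies interferon production, at 2.64 ± 0.133 (SE, edgeR adjusted p = 1.57e-09). IFITM2 at 0.81 thus lay within the range of its neighbours, and IFITM1 and IFITM3 lay above all of them except IRF7 and, for IFITM3, 1 further gene without a symbol at 1.42.

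**Figure D4:**
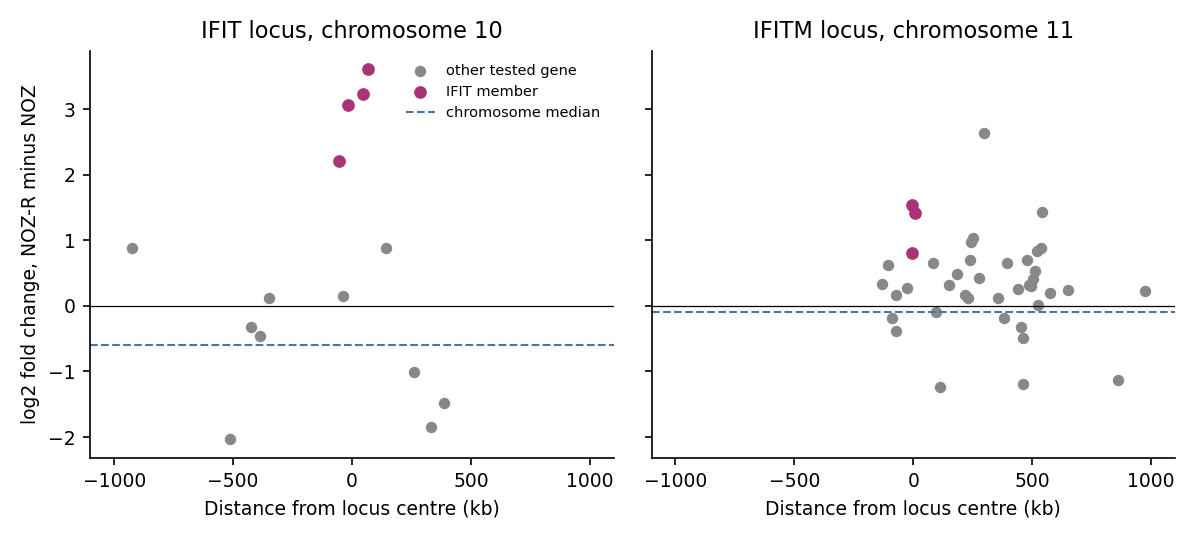
Log2 fold change of each tested gene within 1 Mb of the IFIT locus (left) and the IFITM locus (right), by the distance of its midpoint from the locus centre in kb. Members are purple, other genes grey, and the dashed line is the chromosome median, -0.60 on the left and -0.09 on the right. The 4 IFIT genes stand above all 10 neighbours, while IFITM2 sits among its own. IFITM1 and IFITM3 lie above all of theirs except IRF7 and, for IFITM3, 1 further gene.

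The rest of the interferon pathway was measured beside the members. Of 22 interferon genes, 13 had 0 counts in every library. IFNB1, the interferon most cells make first, was at 0 counts in the parental libraries and at 1, 0 and 2 in the resistant ones. Only IFNE, an epithelial interferon, had enough counts to be tested, at 97, 166 and 77 counts for NOZ and 49, 39 and 29 for NOZ-R. It was lower in the resistant line (log2 fold change -1.44 ± 0.257 SE, edgeR adjusted p = 0.000280). Interferon in the medium was not measured.

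Of 15 genes for receptors and ISGF3 signalling, 10 were higher, 2 lower and 3 did not pass, with a median of 0.24. Over all tested genes 30.4% were higher and 29.8% lower. STAT2 averaged 37.5 ± 1.22 CPM in the parental libraries and 151.0 ± 7.26 CPM in the resistant ones (SD, 3 libraries a line). It was called higher (log2 fold change 2.01 ± 0.0655 SE, edgeR adjusted p = 1.89e-11). IRF9 was present at few counts, 33, 39 and 20 against 70, 73 and 36, and was also higher (log2 fold change 1.06 ± 0.263 SE, edgeR adjusted p = 0.00335). The kinase genes JAK2 and TYK2 were lower, with log2 fold changes of -1.25 and -0.18. The receptor chains IFNAR1, at 0.16, and IFNAR2, at -0.62, did not pass and were picked after their values were seen (edgeR adjusted p = 0.248 and 0.0936).

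Of 12 sensors and adaptors of foreign nucleic acid, 8 were higher, 2 lower and 2 did not pass (median 0.66). This compares with 30.4% higher and 29.8% lower over all tested genes. The double-stranded RNA sensor gene IFIH1 rose from 3.19 to 110.5 CPM on average (log2 fold change 5.11 ± 0.106 SE, edgeR adjusted p = 2.45e-13). TLR3, which senses such RNA in endosomes, summed to 3 counts in the parental line and 330 in the resistant one. The depth-scaled ratio was 118.3, with a 95% counting interval (exact Clopper-Pearson) of 40.1 to 576.5. The adaptor MAVS, at -0.71, and the kinase TBK1, at -0.54, were lower (log2 fold changes, edgeR adjusted p = 6.68e-08 and 0.00182).

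Of 7 tested genes of negative feedback, 4 were higher and none lower, against 30.4% higher and 29.8% lower over all tested genes. They were led by USP18, which blocks signalling at the interferon receptor. USP18 averaged 1.23 ± 0.232 CPM in the parental and 65.9 ± 3.15 CPM in the resistant libraries (SD, 3 libraries a line). The ubiquitin ligase and antibody receptor gene TRIM21 was next (log2 fold change 2.03 ± 0.0837 SE, edgeR adjusted p = 1.94e-10). Of 30 other interferon-induced effector genes, all 30 were higher. Their median was 2.54, and 28 reached a 2-fold change, against 8.96% of all tested genes. The top of this list was IFI44L at 5.20 and the dynamin-like GTPase gene MX2 at 5.19. The IFIT genes lay within this list's range of 0.94 to 5.20, and IFITM2 at 0.81 lay below its lowest member. In the reference, 22 of 38 windows of these effector genes held the response element core, against 0 of 18 windows of the receptor and signalling genes. Of all windows 3.57% held it. The letters TTCNNNGAA were in 11 of the 38 and 4 of the 18 windows, against 7.66% of all windows. The effector genes were listed because they are known to be interferon-induced, and what these matches do was not tested.

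**Figure D5:**
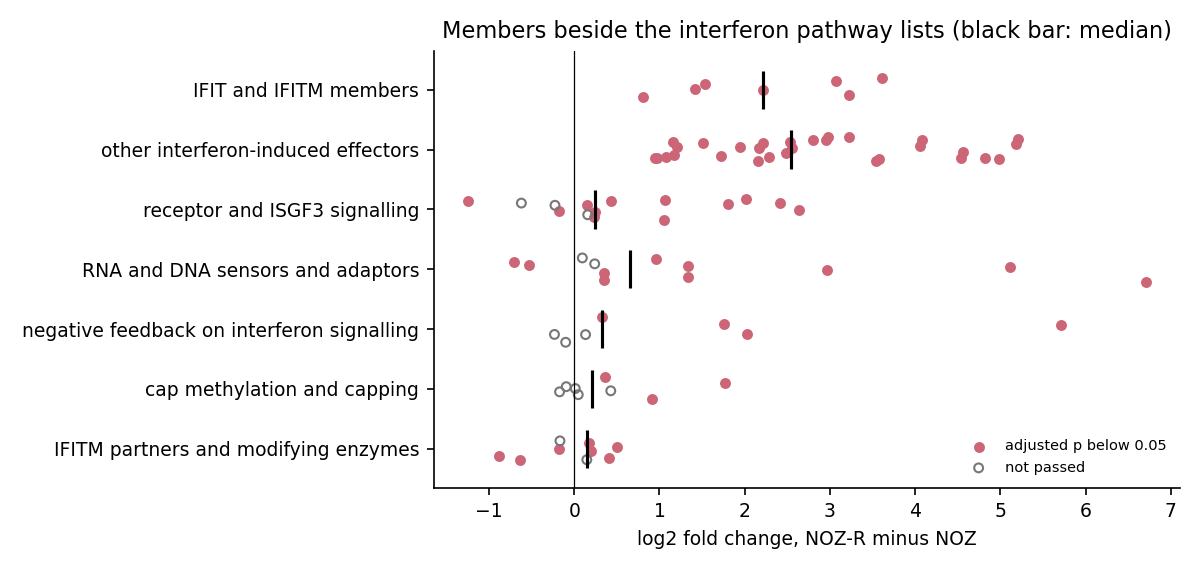
Log2 fold changes of the tested genes of each pathway list (points; filled where the adjusted p is below 0.05, open where not) with the median of each list as a black bar. All members and all 30 other effector genes lie to the right of 0, with medians of 2.21 and 2.54. The sensor list has a median of 0.66, and the signalling, feedback, capping and partner lists have medians between 0.15 and 0.33.

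Some genes known to act on the same RNA ends or on the IFITM proteins were also listed. CMTR1 adds the cap methyl group that IFIT1 reads. It averaged 61.8 ± 3.31 CPM in the parental and 116.2 ± 7.05 CPM in the resistant libraries (SD, 3 libraries a line), and was called higher (log2 fold change 0.91 ± 0.0687 SE, edgeR adjusted p = 8.66e-08). PNPT1, an RNA-degrading enzyme of mitochondria, rose by 1.77. In all, 3 of the 8 capping and decay genes were higher, none was lower and 5 did not pass, against 30.4% of all tested genes called higher. Of 9 partners and modifiers of IFITM proteins, 4 were higher and 3 lower, or 2 higher with libraries scaled by size alone, against 30.4% higher and 29.8% lower over all tested genes. ZDHHC20, which attaches palmitate to IFITM proteins, went from 193.8 to 105.5 CPM on average (log2 fold change -0.88 ± 0.0926 SE, edgeR adjusted p = 2.27e-06). The demethylase gene KDM1A was lower as well, at -0.63. SETD7, a methyltransferase for IFITM3, and the kinase gene FYN were higher by 0.50 and 0.41.

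The genes whose pattern over the 6 libraries was most like each member's were found by the Euclidean distance between log2 CPM profiles, each centred on its own mean, among 8949 genes with a symbol and a mean of at least 10 CPM. For IFIT1 these were S100A2, APOL1 and CREB3L1, at distances of 0.251 to 0.329. For IFIT2 they were IFI44, DDX60L and GBP3 (0.242 to 0.276), for IFIT3 PARP14, DDIT4 and KCTD12 (0.212 to 0.266), and for IFIT5 ITPR1, SP110 and COL6A3 (0.383 to 0.452). For IFITM1 they included CASP4 and MR1 (0.197 and 0.228), for IFITM3 PHGDH, HLA-E and CSPG4 (0.0883 to 0.104), and for IFITM2 KCTD5, RARA and TMEM214 (0.0590 to 0.0697). Among the members themselves the closest pairs were IFIT1 with IFIT3, at 0.291, and IFITM1 with IFITM3, at 0.349. IFIT2 was closer to IFITM1, at 0.952, than to IFIT3, at 1.08. With 6 libraries in 2 lines these distances mostly reflect the size of the difference between the lines.

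Libraries and cell markers were checked beside these results. For comparison with the marker calls, 30.4% of all tested genes were higher and 29.8% lower. Of 10 epithelial and biliary markers all were tested, and their summed level was 2706 to 3186 CPM for the parental and 3555 to 3640 CPM for the resistant libraries, with 4 of them higher and 4 lower. KRT7 (log2 fold change 1.08), KRT8 (0.25), KRT18 (0.64) and MUC1 (1.34) were higher, and CDH1 (-1.83), CLDN4 (-0.92), EPCAM (-0.56) and ELF3 (-0.50) were the lower ones. CDH1 had few counts in both lines, 26, 14 and 15 in NOZ and 5, 2 and 7 in NOZ-R. So did MUC1, at 26, 26 and 23 against 76, 53 and 49. Of 8 fibroblast markers 4 were tested and 2 were higher, with a summed level of 3.10 to 3.59 CPM and 7.91 to 8.11 CPM in the same order. COL1A2 and THY1 had at most 4 counts over a line, while FAP went from 0 counts to 51, DCN from 0 to 37, LUM from 0 to 25 and COL3A1 from 19 to 155. COL3A1 and FAP were the higher ones. COL1A1, from 138 counts to 88 (log2 fold change -0.54), and PDGFRB, from 19 to 33, did not pass. Of 10 leukocyte and endothelial markers 3 were tested and 2 were higher, with a summed level of 5.59 to 8.44 CPM and 13.7 to 15.7 CPM. CD3E, CD68, VWF and KDR had at most 4 counts over a line, PTPRC went from 49 counts to 11, and PECAM1 rose by 2.29 on the log2 scale. The part of such cells in the results was not tested. Within NOZ, the deviation of replicate 2 ran against transcript GC content (Spearman's rho -0.50 over 13914 genes, which share these libraries), with 0.31 and 0.36 in replicates 1 and 3. The IFIT transcripts have 37.4% to 44.3% GC and the IFITM transcripts 52.5% to 56.9%. Without NOZ replicate 2 the log2 fold changes were 3.21, 2.35, 3.13 and 3.72 for IFIT1, IFIT2, IFIT3 and IFIT5, and 1.54, 0.77 and 1.33 for IFITM1, IFITM2 and IFITM3.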

How the data were processed

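The authors deposited raw counts per gene and FPKM values for 3 NOZ and 3 NOZ-R libraries. The submitters' processing notes name fastp 0.22.0 and GRCh38. How reads were aligned and counted, whether by strand and on which annotation, is not given in the sources used here. The deposited FPKM values equal the counts divided by library total and 1 fixed length per gene. Groups follow the sample titles. The counts were tested with edgeR 4.0.16 in R 4.3.3 (filterByExpr, TMM, quasi-likelihood test, Benjamini-Hochberg adjustment at 0.05), and each SE was taken from the fold change and the F statistic (log2 fold change over root F). Positions, exons and GC content came from GENCODE release 29, available for 13914 of 14386 tested genes. The edgeR fit was tested on simulated data with few changed genes, as many up as down. That does not cover a difference as wide as the one between these lines. Alternatives used DESeq2 1.42.0 and limma 3.58.1. The members, lists and tests were chosen with earlier results of these data known. Named were all members, their 3 nearest genes by profile, up to 2 increases and 2 decreases per list past the test, and STAT2, IRF9, USP18 and IFNB1. Some genes that this rule names are not reported here. The markers, the 6 ratios and genes named as picked afterwards are exceptions. Replicate pairs differed by more than sampling noise, with a mean chi-square per gene of 2.18 to 11.5. Counting intervals ignore PCR copies.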

Additional observations from a re-analysis of the deposited data

How the results depend on the processing

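All 7 members were called higher under 16 of 17 alternatives with a test (3 other scalings, no filter on low counts, at least 1 CPM in 3 libraries, DESeq2's Wald test, limma with FPKM pseudocounts of 1 and 0.1, the replicate block, a threshold of 0.01 and leaving out each library). The exception was the test against a 2-fold change, which called 6 and not IFITM2. Of 119 member values 118 kept their direction and call. Over all genes that test called 847 higher and 442 lower, against 4379 and 4284, and leaving out 1 library gave 4018 to 4634 higher and 3833 to 4328 lower. With libraries scaled by size alone the median over all genes was -0.14, with 3316 genes higher and 5468 lower, and IFIT1 was then 3.10 and IFITM2 0.68. With the replicate number as a block, 7 members and 4324 genes were higher and 4180 lower, and no member's call changed. Same-numbered libraries did not deviate together (correlations of 0.07, -0.02 and -0.04). This does not show whether they were prepared as pairs. With FPKM + 1 the IFIT1 to IFIT5 difference reversed to 0.10, since a pseudocount of 1 is close to the IFIT5 level in NOZ. Depth limits IFIT5 in NOZ most, at 81 to 148 counts.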
